A study of Mus musculus with 2 samples.

Results

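Mir191, Mir423 and Mir425 are microRNA (miRNA) genes whose products are often used as reference controls in small RNA assays. They were examined in the hearts of newborn mice. The members were taken by name, as the rows of the deposited tables that map to Mir423, Mir425 and Gm24083, 3 of 1973 miRNA rows. Mir191 itself has no row. Gm24083 is an annotated miRNA gene on the opposite strand of Mir191, so the reads of Mir191 appear in the opposite-strand column of that row and were read there.

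The study held 1 group of 2 libraries, each made from the single heart of 1 pup of strain B6NCrl at postnatal age 0 days. Replicate 2 was pup 3 and replicate 1 was pup 2, and both belonged to the litter of pregnant female 1. No treatment, mutation or transgene is named in the labels, sex was not collected, and total RNA was sequenced with a size limit of 30 nt. No conditions could be compared. The data show how abundant the members were and how far they differed between 2 littermates, and the spread between them does not cover other litters.

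A miRNA is cut from a hairpin in a longer transcript, and either arm of the hairpin can become the mature miRNA. The mature miRNA guides a silencing complex to messenger RNAs, mostly through its seed, bases 2 to 8. In small RNA assays a miRNA that is present in most cell types and varies little is used to bring samples to a common scale, and miR-191, miR-423 and miR-425 are common choices because they are found in many tissues.

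The mature arms of the members are shown because they are the RNAs that such assays target, with the seed in capitals. The sequences are those of RefSeq on GRCm38.p6, and all 3 miRNAs were found there.
mmu-miR-423-5p: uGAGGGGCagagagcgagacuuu
mmu-miR-423-3p: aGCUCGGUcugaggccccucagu
mmu-miR-425-5p: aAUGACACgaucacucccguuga
mmu-miR-425-3p: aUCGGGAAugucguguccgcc
mmu-miR-191-5p: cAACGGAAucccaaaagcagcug
mmu-miR-191-3p: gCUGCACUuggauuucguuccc

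The 6 arms had 6 different seeds, so no pair of members belongs to a common seed family. Among the other mature arms in the RefSeq table, miR-489-3p had the seed of miR-425-5p and miR-6921-5p had that of miR-423-5p. Neither relative was found at a level above the floor: Mir489 had 0 counts in both hearts, and Mir6921 had 1 count in replicate 2 and 0 in replicate 1. Compared base by base without gaps, over at least 18 nt, the arm of any other mouse miRNA in the table differed from each member arm at 5 or more positions. The counts of the members are therefore not split with a near-identical miRNA in that table. No arm sequence occurred in another annotated transcript except the transcripts that hold the genes themselves.

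The hairpins are shown with both mature arms in capitals, because the deposited counts are sums over a gene and do not separate its arms.
Mir423 hairpin: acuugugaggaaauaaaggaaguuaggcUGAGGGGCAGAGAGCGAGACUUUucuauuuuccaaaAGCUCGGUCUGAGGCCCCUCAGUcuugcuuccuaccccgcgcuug
Mir425 hairpin: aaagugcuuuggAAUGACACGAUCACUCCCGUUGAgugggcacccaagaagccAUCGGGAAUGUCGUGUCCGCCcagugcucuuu
Mir191 hairpin: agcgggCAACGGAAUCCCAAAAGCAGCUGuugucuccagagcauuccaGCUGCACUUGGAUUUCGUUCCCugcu

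Mir423 (ENSMUSG00000065518.2) lies on chromosome 11 at 77078064 to 77078172 of GRCm38, minus strand. It falls in an intron of both GENCODE M21 transcripts of Nsrp1 that span it; Nsrp1 encodes a nuclear speckle protein that takes part in splicing. Mir425 (ENSMUSG00000065579.1) lies on chromosome 9 at 108568777 to 108568861, plus strand. Mir191 lies just before it on the same strand, at 108568319 to 108568392, with 384 nt between the 2 hairpins. Both are inside the noncoding RNA gene 4833445I07Rik in GENCODE M21. Mir425 is in an exon of the 1 transcript that spans it, and Mir191 is in an exon of 1 of its transcripts and in an intron of another. Gm24083 (ENSMUSG00000092915.1) covers 108568295 to 108568414 on the minus strand, and so spans the whole of Mir191. Its annotated sequence contains the reverse complement of the Mir191 hairpin, starting at position 23 from its own 5′ end.

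**Figure D1:**
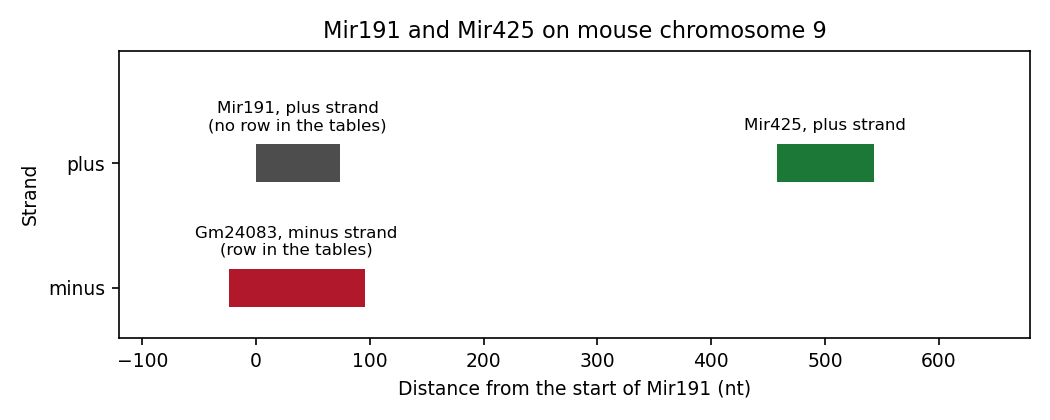
Map of the Mir191 and Mir425 locus, drawn to scale with the distance from the start of Mir191 in nt on the x axis and the strand on the y axis. Bars are the annotated genes; Gm24083 spans Mir191 on the other strand, and 384 nt separate Mir191 and Mir425.

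The reads of each member lay on 1 strand only. The row of Gm24083 held 8904 reads on the strand of Mir191 in replicate 2 and 5944 in replicate 1, and 0 reads on the strand of Gm24083 in either. Mir423 had 7855 and 6796 sense reads in replicates 2 and 1, and Mir425 had 6355 and 4640. Both had 0 reads on the opposite strand in either heart, so reading both strands would leave each member's count as it is. Among the miRNA genes of GENCODE M21 that have no row and lie opposite a row with reads, Mir191 had the third largest count, after Mir378a and Mirlet7e. Its reads were 3.57% of all opposite-strand counts in replicate 2 and 3.61% in replicate 1.

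The library of replicate 2 had 7441784 reads and that of replicate 1 had 5052766. Of these, 3487183 and 2323450 were sense counts on miRNA genes, the total to which all levels below are scaled as counts per 1000000 (CPM). Reads that aligned to several places made up 37.1% and 36.6%, and were assigned to no gene. The labelled tissue was checked with marker miRNAs. The heart muscle miRNAs Mir208a, Mir208b, Mir499, Mir1a-1 and Mir133a-1 together held 8.89% of the sense total in replicate 2 and 9.01% in replicate 1. The last 2 had at most 25 counts in either library, but both share sequence with another miRNA gene. Their low counts therefore do not show that they were scarce. The liver miRNA Mir122 was at 47.3 CPM in replicate 2 and 53.8 CPM in replicate 1. All 5 brain rows listed (Mir124a-1, Mir124a-2, Mir124a-3, Mir9-2 and Mir9-3) were at 0, but each shares sequence with another miRNA gene, so their zeros check nothing. The limit that a count of 0 allows, 3 counts, is 0.860 CPM for replicate 2 and 1.29 CPM for replicate 1.

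The members were of middle to high abundance and lay close to each other. Their reads together equalled 0.663% of the sense total in replicate 2 and 0.748% in replicate 1, a total that does not itself hold the reads of the Mir191 strand. Mir423 averaged 2589 ± 475 CPM (SD, n = 2), the Mir191 strand 2556 ± 3.47 CPM and Mir425 1910 ± 123 CPM. By mean CPM Mir423 ranked 42, the Mir191 strand 43 and Mir425 52 of the 1973 rows. In this order the other miRNAs without a row stand at the sense count of the row opposite them. With those read in the same way as Mir191, Mir378a and Mirlet7e would lie above all 3 members, and the ranks would be 44, 45 and 54. A read of a small RNA library covers 1 mature arm, so no scaling by gene length was made. These levels compare reads, and the yield of reads per molecule can differ between miRNAs.

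Mir423 was the member that differed most between the pups. Its level was 2253 CPM in replicate 2, with an exact Clopper-Pearson 95% interval of 2203 to 2303, and 2925 CPM (2856 to 2995) in replicate 1. The intervals did not overlap. They cover counting error only and take each read as an independent molecule, which reads are not. The Mir191 strand was level in both hearts, at 2553 CPM (2501 to 2607) in replicate 2 and 2558 CPM (2494 to 2624) in replicate 1, and these intervals overlapped almost fully. Mir425 had 1822 CPM (1778 to 1868) in replicate 2 and 1997 CPM (1940 to 2055) in replicate 1, a smaller gap than that of Mir423 but again without overlap of the intervals. Mir425 was the lowest member in each heart, and the first place differed: the Mir191 strand led in replicate 2 and Mir423 led in replicate 1.

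**Figure D2:**
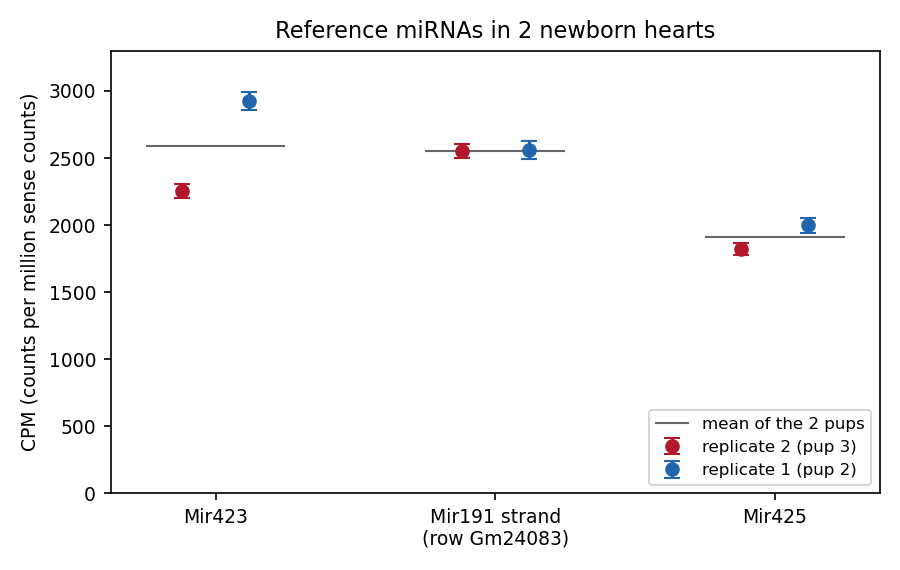
Level of each member in CPM (y axis, from 0) in replicate 2 and replicate 1. Points are libraries, bars their exact 95% counting intervals and grey lines the mean of both pups; Mir423 was at 2253 CPM in replicate 2 and 2925 CPM in replicate 1, while the Mir191 strand was at 2553 and 2558 CPM.

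The gaps were set against counting error with an exact two-sided binomial test on the reads of each row, given library sizes scaled by TMM, with Benjamini-Hochberg adjustment over all 616 rows with at least 1 read. The test compares these 2 libraries, not conditions. The log2 ratios and intervals printed beside each p are scaled by the sense totals, and those on the TMM scale of the test follow. Mir423 was lower in replicate 2, with a log2 ratio of -0.38 (exact 95% interval -0.42 to -0.33; adjusted p = 1.76e-58 in the exact binomial test). Mir425 was lower as well, by less, with a log2 ratio of -0.13 (-0.19 to -0.08; adjusted p = 1.36e-06 in the exact binomial test). The Mir191 strand did not pass (log2 ratio -0.003, interval -0.05 to 0.04, adjusted p = 0.811 in the exact binomial test). On the TMM scale the log2 ratio was -0.39 (exact 95% interval -0.44 to -0.35) for Mir423, -0.15 (-0.20 to -0.09) for Mir425 and -0.02 (-0.07 to 0.03) for the Mir191 strand. These intervals cover counting error within 1 scaling and not the choice between scalings.

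Mir423 and Mir425, 2 of the 3 members, were thus called. In all rows tested 14.0% were called, 55 higher and 31 lower in replicate 2, and the called lower share was 5.03%. The call is common at the depth of the members. Of the 44 other rows whose mean CPM lay within 2-fold of that of Mir423, 22 were called, and of the 49 around Mir425, 27 were. No member passed 1.5-fold, which 3.09% of the 194 rows with a mean of at least 50 CPM did. The median log2 ratio of the 3 members was -0.13, and that of the 194 rows was 0.05.

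Mir423 and the Mir191 strand lay at opposite ends of the spread in absolute log2 ratio shown by miRNAs of like abundance, with Mir425 between them. Around Mir423, 43 of the 44 rows had a smaller absolute log2 ratio than its own, and their median was 0.07. Among the 194 rows with a mean of at least 50 CPM, Mir423 had the third most negative ratio. Around the Mir191 strand, 0 of 44 rows had a smaller absolute ratio. Around Mir425, 32 of 49 did, with a median of 0.08. These positions describe 2 libraries and carry no test.

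**Figure D3:**
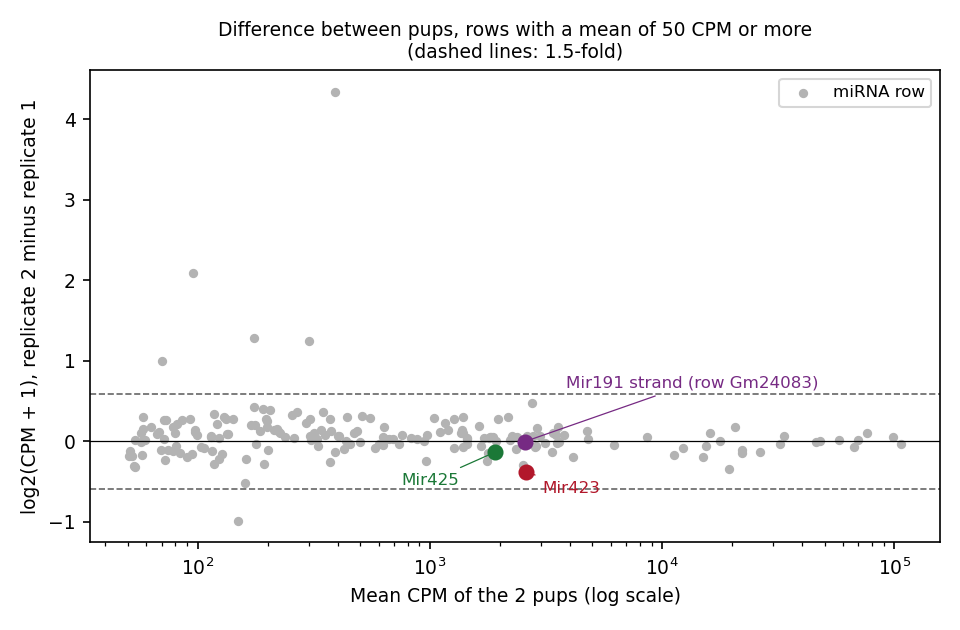
Difference between the pups, log2(CPM + 1) in replicate 2 minus replicate 1 (y axis), against the mean CPM on a log scale (x axis) for the 194 rows with a mean of at least 50 CPM. Coloured points are the members and dashed lines mark 1.5-fold; Mir423 lies at -0.38, Mir425 at -0.13 and the Mir191 strand at 0.00.

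The near identity of the Mir191 strand in CPM held to a lesser degree under other scalings. With totals of the sense counts, 2 of the 191 other rows with a mean of at least 50 CPM had a smaller absolute log2 ratio. With TMM it was 19, with DESeq2 size factors 11, and with all reads of the libraries 15. When the median row was set to 0 (this scaling and that by all reads were chosen after the data were seen), the Mir191 strand had a log2 ratio of -0.06 and 62 of the 191 rows were closer to 0. For Mir423 the number of closer rows lay between 176 and 184 in these 5 scalings, and its log2 ratio between -0.43 and -0.35. For Mir425 the number lay between 82 and 129, and its log2 ratio between -0.19 and -0.10.

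Ratios between members do not depend on the scaling. The log2 ratio of the Mir191 strand over Mir425, its neighbour on the same strand, was 0.49 in replicate 2 and 0.36 in replicate 1, a mean of 0.42 ± 0.0913 (SD, n = 2), or 1.34-fold. The ratio over Mir423 was 0.18 in replicate 2 and -0.19 in replicate 1, with a mean of -0.01 ± 0.264, so that its direction differed between the pups. Mir423 over Mir425 gave 0.31 in replicate 2 and 0.55 in replicate 1, with a mean of 0.43 ± 0.173. The pair that includes no Mir423 thus had the smallest SD. No test was made, since an exact sign flip over 2 pups cannot give a p below 0.5.

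Mir191 and Mir425 are neighbours, and their pup differences were 0.13 apart on the log2 scale. The same distance was computed for the other adjacent pairs of miRNA rows on 1 strand, within 1000 nt and with a mean of at least 50 CPM each, a set chosen after the data were seen. In these 36 pairs the median was 0.10 and the range 0.0036 to 0.69, and 25 pairs lay closer together than Mir191 and Mir425. The pairs were not matched for depth, and counting error is larger for rows with fewer counts. The widest pair was Mir134 and Mir485, and Mir485 had 165 counts in replicate 2 and 136 in replicate 1. For pairs that share sequence with another locus, the counts are uncertain.

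Other miRNAs often used as references were compared from a list of 17 symbols, chosen with earlier results of these data known. Of these, 16 had a row (Mir92a-1 under its older symbol Mir92-1) and Mir24-1 had none. By the exact test 1 was called higher in replicate 2 and 3 lower, and 12 did not pass. In all 616 rows tested 14.0% were called, and among the 194 rows with a mean of at least 50 CPM 73 were. The call depends on depth, and some of the 16 had few counts. The median log2 ratio of the 16 was 0.06, beside 0.05 for the rows with a mean of at least 50 CPM. Of the 16, 8 share no stretch of 20 nt with another miRNA gene, and their log2 ratios ran between -0.08 and 0.17. Mir423, at -0.38, and Mir425, at -0.13, lay outside that range and the Mir191 strand inside it. The low end of the range was Mir484, whose counting interval (-0.14 to -0.03) overlapped that of Mir425 (-0.19 to -0.08). The range of all 16, including those with shared sequence or few counts, was -0.25 to 0.51 and held Mir425 as well. Mir24-1 can be read like Mir191, from the opposite-strand column of Mir3074-1. It was then at 37.6 CPM in replicate 2 and 59.0 CPM in replicate 1 (log2 ratio -0.64), below Mir423 and outside the table tested. It had 131 and 137 reads and shares sequence with other miRNA genes, so its counts are uncertain.

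Within the 8, Mir484, at 1840 CPM in replicate 2 and 1951 CPM in replicate 1, was lower (log2 ratio -0.08, adjusted p = 0.00266 in the exact binomial test). Mir93, a member of the cluster in Mcm7, was higher, with 3571 and 3372 CPM (log2 ratio 0.08, adjusted p = 0.0110 in the exact binomial test). Mir151 (3499 CPM in replicate 2 and 3551 CPM in replicate 1), Mir361 (1458 and 1423), Mir186 (364 and 344), Mir25 (329 and 307), Mir328 (310 and 307) and Mir345 (83.2 and 73.6) did not pass. Of the 8 with shared sequence, whose counts are uncertain, Mir16-1 (log2 ratio -0.06) and Mir92a-1 (-0.25) were lower. Mir16-2, Mir24-2, Mir26a-1, Mir26a-2, Mir103-1 and Mir103-2 did not pass, and the last 4 had at most 145 counts in either heart.

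**Figure D4:**
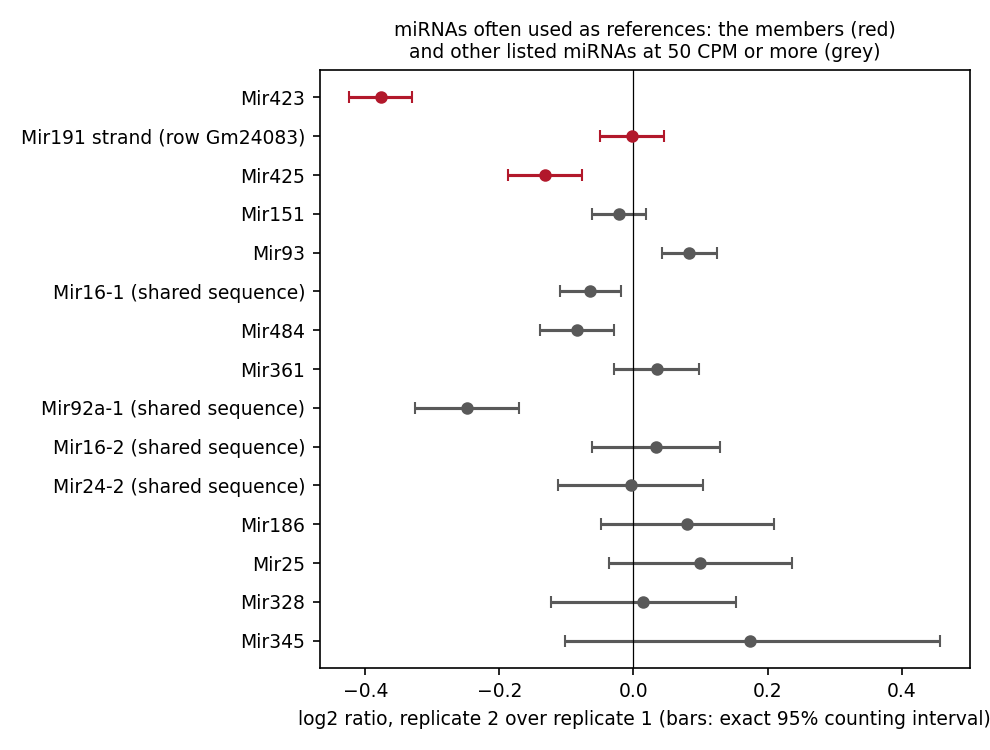
Log2 ratio of replicate 2 over replicate 1 (x axis) for the members in red and for the listed reference miRNAs with a mean of at least 50 CPM in grey, with exact 95% counting intervals as bars. Mir423, at -0.38, lies furthest below 0, and the intervals of Mir151, Mir361, Mir328 and the Mir191 strand are among those that include 0.

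Candidate references are often ranked by the mean SD of their log2 ratios to all other candidates, a measure that needs no scaling. With 2 libraries it follows from the pup log2 ratios of the candidates and adds no further evidence. It was computed after the data were seen, over 11 candidates: the members and the 8 listed miRNAs without shared sequence, all with a mean of at least 50 CPM. Mir328 had the lowest value, 0.0772, followed by the Mir191 strand at 0.0784 and Mir361 at 0.0786. Mir425 came in place 9 with 0.128, ahead of Mir345 with 0.146. Mir423 came last with 0.284. The first 3 values lie close together, and no test was made of the order.

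If the pups were brought to a common scale by a member, the rest of the table would move with it. The count ratio of replicate 2 over replicate 1 was 1.16 for Mir423, 1.37 for Mir425 and 1.498 for the Mir191 strand, and 1.501 for the sense totals, 1.52 for TMM sizes and 1.51 for DESeq2 size factors. Scaled by Mir423, the median log2 ratio of the 194 rows with a mean of at least 50 CPM would be 0.43, against 0.05 with the totals, and 39 rows instead of 6 would lie past 1.5-fold, 38 of them higher in replicate 2. By Mir425 the median would be 0.19 and 7 rows would pass, and by the Mir191 strand 0.06 and 6 rows. The geometric mean of all 3 members gave a factor of 1.33, a median of 0.22 and 8 rows past 1.5-fold. Without Mir423 the factor was 1.43 and the median 0.12. These medians follow from the count ratios of the members and add no further evidence on them.

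**Figure D5:**
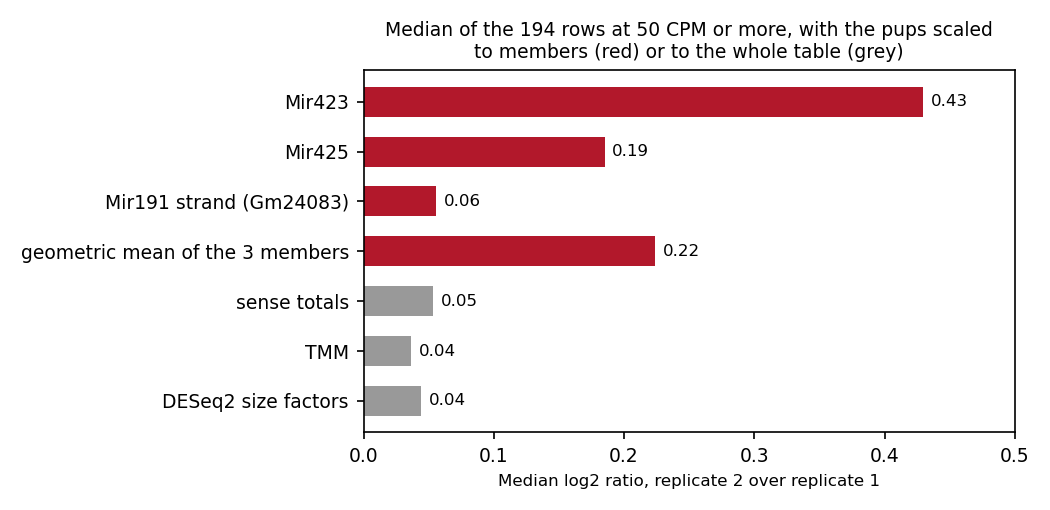
Median log2 ratio, replicate 2 over replicate 1, of the 194 rows with a mean of at least 50 CPM (x axis, bars starting at 0) when the pups are scaled to a member or to the geometric mean of the members (red) or to the whole table (grey). The median is 0.43 with Mir423, 0.19 with Mir425 and 0.06 with the Mir191 strand, against 0.05 with the sense totals.

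The rows most like each member were taken by the distance of log2(CPM + 1) over the 2 libraries, which with so few points reflects mainly level. Mir342 lay nearest to Mir423, at a distance of 0.0832, with 2254 CPM in replicate 2 and 2761 CPM in replicate 1 (log2 ratio -0.29). Mir125a and Mir16-1 followed at 0.269 and 0.295. Mir484 was nearest to Mir425, at 0.0361, ahead of Mir744 and Mir188. For the Mir191 strand the nearest were Mir181c (0.0689), Mir15a and Mir106b.

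Some markers of heart muscle and of other cell types also differed between the pups. The red cell miRNAs Mir451a, Mir144 and Mir486 summed to 0.0608% of the sense total in replicate 2 and 0.0705% in replicate 1, and Mir144 was called lower. The white cell miRNAs Mir223, Mir150 and Mir155, the 3 of 4 with a row, summed to 0.0498% and 0.0536%, and none was called. Mir142 was read like Mir191, from the opposite-strand column of Mir142b, and was at 526 CPM in replicate 2 and 680 CPM in replicate 1, a difference outside the table tested. Of the heart muscle miRNAs, Mir208a was called lower, with 13951 CPM in replicate 2 and 15926 CPM in replicate 1 (log2 ratio -0.19). Mir208b (70139 and 69447 CPM, log2 ratio 0.01) and Mir499 (4844 and 4737 CPM, 0.03) were not called. Mir1a-1 and Mir133a-1, with few counts, were not called either. The 5 heart muscle miRNAs together had a log2 ratio of -0.02. The endothelial Mir126a was called lower (-0.03), and the smooth muscle Mir143 was called higher (0.06). Mir126a, like Mir451a and Mir486, shares sequence with another miRNA gene when both strands are searched. Mir126b lies opposite Mir126a, and that strand had 9 reads in replicate 2 and 5 in replicate 1. The 11 miRNAs of epithelia and multiciliated cells summed to 0.200% in replicate 2 and 0.0593% in replicate 1, and 9 were called higher. Of the red cell, white cell and epithelial rows, 0 were at 0 in both hearts. The part of such cells in the differences of Mir423 and Mir425 was not tested. In bulk tissue, fewer cells of a type and less RNA per cell cannot be told apart.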

How the data were processed

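Small RNA was sequenced from 2 newborn mouse hearts. The deposited values are raw counts for each miRNA gene, given for both strands together, for the sense strand and for the opposite strand. Per the labels the assembly is mm10, and per the deposited descriptions the annotation is GENCODE M4. The aligner, counter, trimming and multiple-alignment settings are not given in the sources used here. The 4 summary rows (unmapped, 11.5% of reads in replicate 1 and 10.5% in replicate 2; several places; no feature; ambiguous) were kept out of all totals.

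Symbols and positions came from GENCODE M21 on GRCm38, the assembly of mm10, where 1894 of 1973 identifiers matched. CPM was computed over the sense total, with a pseudocount of 1 CPM in log2 ratios. The opposite-strand count of Gm24083 entered as its row in the table and was set against the same total. Its sense count is 0, so the total is unaffected. TMM came from edgeR 4.0.16, size factors from DESeq2 1.42.0, and exact tests from scipy 1.17.1; the threshold was an adjusted p of 0.05. A quasi-likelihood test cannot be run between 2 single libraries. The exact test was tried on simulated libraries with counting error and no variation between pups. That trial therefore does not check the calls between the real pups. Because the libraries are reads of 2 pups, p-values measure counting error only.

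Members, lists and markers were chosen with earlier results of these data known. Named genes are the members, all rows of the list of other references, miRNAs that share a member's seed, the 3 nearest rows of each member, and markers; Mir378a and Mirlet7e were named after their values were seen. Alternatives covered the denominator, strand, scaling, low-count filter, pseudocount and left-out pups.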

Additional observations from a re-analysis of the deposited data

How the results depend on the processing

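Of 64 alternative values over 13 results, 55 were judged the same, 9 moved, and no called value changed sign. Differences were judged by the threshold, and levels and ratios by the SD between the pups. Counts of called rows were judged by a limit of 1.5-fold, and the factor from the members by its counting interval (1.31 to 1.36). Several values could not move, so the 55 do not measure robustness. Leaving out 1 of 2 pups always stays within the SD. The members had no reads on the other strand, so their ratios and factor could hardly change with it. The pseudocount does not enter the test. The ratio of the Mir191 strand over Mir423, which has no test, did change sign with the pup left out: its log2 value was 0.18 without replicate 1 and -0.19 without replicate 2, against -0.01 with both. Levels moved with the denominator: per 1000000 reads of the whole library, Mir423 was at 1200, Mir425 at 886 and the Mir191 strand at 1186, and with both strands in the denominator Mir425 was at 1783 CPM and the Mir191 strand at 2386 CPM. For the Mir191 strand the spread between the pups was so small that any change of denominator exceeds it. The factor between the pups from the geometric mean of the members was 1.43 without Mir423 and 1.26 without the Mir191 strand, against 1.33 with all 3. In the 6 alternatives of each pup difference, Mir423 had log2 ratios of -0.39 to -0.38 and Mir425 of -0.14 to -0.13, all called by the exact test (adjusted p up to 1.09e-53 and 2.77e-05), and the Mir191 strand was called in none (0.662 to 1). Without replicate 1 or without replicate 2 each level is that of the other pup, as given above. No paired analysis was possible because the series has 1 group. Counting intervals hold within 1 scaling only. Library preparation and animal cannot be told apart, both pups are of 1 litter, and arms are not separated.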
